A study of Mus musculus with 6 samples.

Results

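The secretory products of the uterine glands Prss28, Prss29, Spink1, Cxcl15 and Ttr, were examined in whole uteri from the window in which the embryo implants. They were taken by name, with all probes that the array held for them, and were chosen by their measured difference between the genotypes compared here, which was known beforehand. They were 5 of the 20145 genes matched to a probe, carried 6 probes between them, and all 5 were among the 14789 genes bright enough to be tested. RNA came from 3 Sox17 f/f and 3 Sox17 ed/ed (labelled LtfiCre/+ Sox17 f/f) female mice at gestation day (GD) 3.5 of natural pregnancy, mated at 8 to 10 weeks of age, and the embryos had been removed from the uteri before freezing. Both genotypes carried the floxed Sox17 allele. The Sox17 ed/ed mice in addition carried iCre inserted at the Ltf locus, a gene that the uterine epithelium switches on as the female matures, so that deletion was directed to luminal and glandular epithelium together and not to glands alone, whereas cells in which Ltf is silent kept Sox17. The controls carried no iCre, so that the effect of iCre and that of the loss of Sox17 cannot be told apart. Each RNA sample was read in 1 colour on its own Agilent G3 Mouse GE array.

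Uterine glands are epithelial tubes that open into the lumen and release proteins into it before implantation. Their formation in the mouse depends on FOXA2, a forkhead factor of the glandular epithelium, and around the time of nidatory estrogen they release leukemia inhibitory factor (LIF), without which the blastocyst does not attach. PRSS28 and PRSS29 are secreted trypsin-like serine proteases, also called implantation serine proteinases, that have been linked to hatching and to invasion of the blastocyst. SPINK1, named SPINK3 in older mouse literature, is a secreted Kazal-type inhibitor of trypsin, and CXCL15 (lungkine) is a secreted CXC chemokine. TTR (transthyretin) carries thyroid hormone and, bound to retinol-binding protein, retinol.

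Prss28 and Prss29 are direct neighbours in the order of named protein-coding genes on chromosome 17, whereas Cxcl15 lies among other chemokine genes on chromosome 5. The 250 bases before the start site of these 3 genes (RefSeq, GRCm38.p6, plus strand) are shown because the protease pair shares stretches found before no other gene start searched. Capitals mark, in the protease pair, the 2 longest runs of bases that both windows share and, in Cxcl15, the letters ATATAAA with which the second run begins.

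Prss28, chr17:25308396-25308645: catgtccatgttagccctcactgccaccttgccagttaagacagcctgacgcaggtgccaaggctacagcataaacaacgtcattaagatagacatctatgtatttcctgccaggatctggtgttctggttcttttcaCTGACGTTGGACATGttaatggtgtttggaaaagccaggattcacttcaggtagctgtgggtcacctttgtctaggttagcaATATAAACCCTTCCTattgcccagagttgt

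Prss29, chr17:25318404-25318653: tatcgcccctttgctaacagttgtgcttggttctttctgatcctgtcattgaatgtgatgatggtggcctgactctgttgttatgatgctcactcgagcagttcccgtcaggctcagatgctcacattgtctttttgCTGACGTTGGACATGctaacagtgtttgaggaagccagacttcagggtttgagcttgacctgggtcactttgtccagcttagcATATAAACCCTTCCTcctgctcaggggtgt

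Cxcl15, chr5:90794284-90794533: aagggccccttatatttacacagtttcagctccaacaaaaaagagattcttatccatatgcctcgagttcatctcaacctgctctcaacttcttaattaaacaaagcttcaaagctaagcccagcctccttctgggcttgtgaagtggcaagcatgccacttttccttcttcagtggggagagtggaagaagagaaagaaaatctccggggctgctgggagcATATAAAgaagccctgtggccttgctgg

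The run CTGACGTTGGACATG of 15 bases began 112 bases before the start of Prss28 and 113 bases before that of Prss29. The run ATATAAACCCTTCCT, equally long, began 30 bases before the start of both. Each was found in 2 of the 32851 RefSeq promoter windows searched, those of this pair. Over the aligned windows, Prss28 and Prss29 were identical at 162 of 259 columns (62.5%), against 48.5% for Prss28 with Cxcl15 and 45.7% for Prss29 with Cxcl15. The letters ATATAAA, searched for after the sequences had been seen, occurred once in each of the 3 windows and in 4.03% of all windows of this length on either strand. For SOX (ATTGTT, in 9.42% of all windows), forkhead (TGTTTAC, 3.17%) and GATA factors (AGATAA, 9.99%), a single exact spelling of bound letters was searched for. None of the 3 spellings was in any of the 3 windows on either strand, which says only that these letters are not in these bases. Other spellings that these factors bind were not searched for.

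All values are log2 signals after quantile normalization over the 6 arrays, for which 1 unit is a doubling, and probe levels are compared only between arrays and not between probes. As a check of the labels, Sox17 read 12.21, 12.07 and 12.22 in the Sox17 f/f arrays (replicates 1 to 3) and 9.75, 9.59 and 9.81 in the Sox17 ed/ed arrays, and was thus lower in every Sox17 ed/ed array. Between 60.7% and 65.7% of the spots of a Sox17 f/f array and between 56.8% and 59.4% of those of a Sox17 ed/ed array were well above background, and 0 spots of the 5 genes were saturated. All 3 Sox17 f/f arrays lay in one row of the slide and all 3 Sox17 ed/ed arrays in another, so that slide position and genotype cannot be told apart. Nothing in the labels ties replicates of the genotypes to each other.

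All 5 gland products were lower in every Sox17 ed/ed array than in any Sox17 f/f array, and all 5 met the criteria of the study's methods (unadjusted p under 0.01 and a fold change of at least 1.4), as did 6.48% of all genes tested in that direction and 6.02% in the other. Genes whose arrays lay apart with Sox17 ed/ed lower made up 21.0% of all genes tested. Because the 5 genes were chosen with this difference known, these counts and the differences that follow are a description, and no test is given for them. In RNA of a whole uterus, fewer gland cells and less RNA in each gland cell cannot be told apart.

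Among the proteases, Prss28 read 12.38, 13.15 and 11.93 in the Sox17 f/f arrays and 5.51, 5.41 and 5.49 in the Sox17 ed/ed arrays. The control values were spread over a 2.33-fold range with replicate 2 the highest, whereas the Sox17 ed/ed values were close together and still well above background on all 3 arrays. The means were 12.49 ± 0.62 and 5.47 ± 0.06 (SD, n = 3 each), a log2 difference of -7.02 (SE 0.29), or 129-fold lower. In unnormalized processed signal these were 5210, 9810 and 4170 units against 46.1, 39.5 and 45.1 units, and the Sox17 ed/ed signals were 6.81 to 7.92 times their own spot error. Prss28 was thus the only one of the 5 whose residual signal was measured on every Sox17 ed/ed array.

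Prss29, its neighbour, was read by 2 probes. The brighter probe gave 13.01, 13.29 and 12.46 in the Sox17 f/f arrays and 3.85, 1.84 and 1.95 in the Sox17 ed/ed arrays. The other gave 10.29, 10.63 and 9.68 against 1.98, 2.11 and 2.22. With both probes, replicate 2 was the highest and replicate 3 the lowest control, as for Prss28, and no Sox17 ed/ed value was well above background. A fold for such a probe is only a bound, set against the lowest signal well above background on each Sox17 ed/ed array, and Prss29 was at least 414-fold lower by the brighter and at least 63.1-fold lower by the dimmer probe. Whether the Prss28 and Prss29 probes also bind RNA of the neighbouring paralog was not tested.

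**Figure D1:**
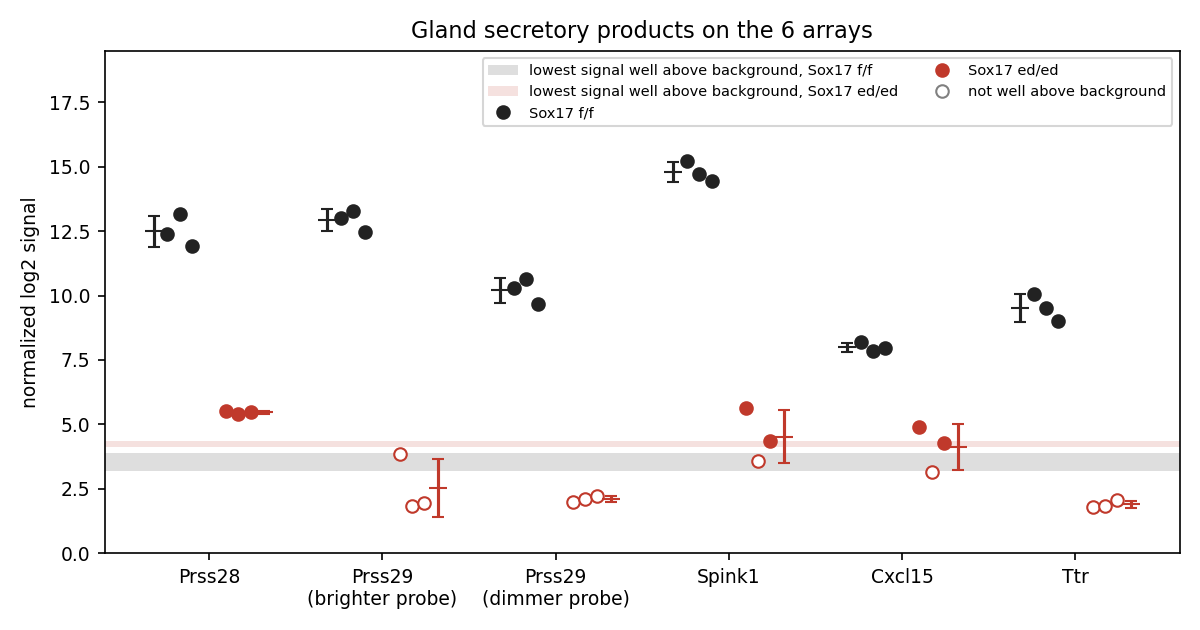
Normalized log2 signal (y axis) of each probe of the 5 gland products (x axis) on the 3 Sox17 f/f arrays (black) and the 3 Sox17 ed/ed arrays (red). Within a genotype the points stand in the order of replicates 1 to 3, open points were not well above background, the ticks with bars are the mean and SD of 3 arrays, and the shaded bands span the lowest signal well above background on the arrays of each genotype (3.19 to 3.89 and 4.13 to 4.34). Every Sox17 ed/ed point lies below every Sox17 f/f point of its probe, and those of Prss28 stay above the band.

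Spink1, the trypsin inhibitor, read 15.21, 14.72 and 14.45 in the Sox17 f/f arrays and 5.63, 3.57 and 4.36 in the Sox17 ed/ed arrays. Here replicate 1 was the highest of both genotypes, and the Sox17 ed/ed arrays differed among themselves by 4.16-fold, more than the 1.69-fold range of the controls. Replicates 1 and 3 of Sox17 ed/ed were well above background and replicate 2 was not. The means were 14.80 ± 0.38 and 4.52 ± 1.04 (SD, n = 3 each), a log2 difference of -10.28 (SE 0.51), or 1240-fold lower, which rests on 2 of 3 measured Sox17 ed/ed arrays and was -10.02 with replicate 2 lifted to the lowest signal well above background of its array. In processed signal, Spink1 went from 38100, 29200 and 23500 units to 50, 9.92 and 20.1 units.

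Cxcl15, the chemokine, read 8.19, 7.83 and 7.97 in the Sox17 f/f arrays and 4.89, 3.15 and 4.28 in the Sox17 ed/ed arrays. The controls agreed to within 1.28-fold, the narrowest range of the 5 genes, and as for Spink1 replicate 2 of Sox17 ed/ed was the lowest and the only one not well above background. The means were 8.00 ± 0.18 and 4.11 ± 0.89 (SD, n = 3 each), a log2 difference of -3.89 (SE 0.42), or 14.8-fold lower, and -3.49 with replicate 2 lifted as for Spink1. With normexp background correction, which adds an offset and so shrinks the differences of dim probes, it was -2.05, and all 5 products had smaller differences with it (-5.78 for Prss28, -6.80 for Prss29, -8.32 for Spink1 and -3.61 for Ttr).

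Ttr, the hormone and retinol carrier, read 10.05, 9.52 and 8.99 in the Sox17 f/f arrays and 1.80, 1.81 and 2.06 in the Sox17 ed/ed arrays. The control arrays spanned 2.08-fold from replicate 1 to replicate 3, and no Sox17 ed/ed array was well above background. Ttr was at least 39.3-fold lower. Its Sox17 ed/ed signals of 3.75 to 4.04 units were about as large as their own spot error, so that the difference of measured means has no use as a fold.

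Ordered by measured difference over all genes tested, Prss29 was the lowest and Spink1 the next, Ttr was at place 4, Prss28 at place 7 and Cxcl15 at place 47. These places set measured differences against each other, some of them of genes at or near background in Sox17 ed/ed, such as Prss29 and Ttr themselves, so that the order among the 5 and the place of Prss28 among its neighbours are not settled. The median difference over all genes tested was -0.0019.

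**Figure D2:**
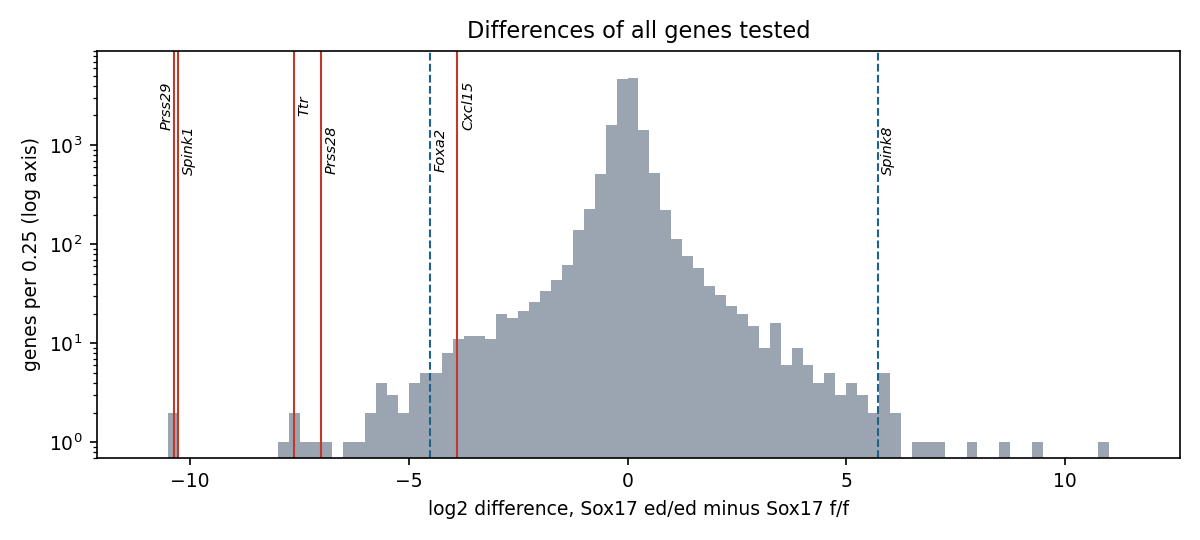
Number of genes per step of 0.25 (y axis, log scale) by log2 difference, Sox17 ed/ed minus Sox17 f/f (x axis), for the 14789 genes tested. Solid red lines mark the 5 gland products and dashed blue lines Foxa2 and Spink8, all at their measured differences, also for Prss29 and Ttr, of which only a bound is known. The 5 lines lie between the lowest value and -3.89, far to the left of the bulk around 0.

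The 5 genes also varied more between control arrays than most genes did, although the same control values entered the difference by which they were chosen. Their SD over the 3 Sox17 f/f arrays was 0.62 for Prss28, 0.53 for Ttr, 0.42 for Prss29, 0.38 for Spink1 and 0.18 for Cxcl15, against a median of 0.11 over all genes tested. This placed Prss28 above 97.2% of genes, Ttr above 96% and Cxcl15 above 72.4%. Such a spread was not particular to the 5. Among the gland genes that the study names beside them, it was 0.50 for Lif, 0.35 for Cbs and 0.34 for Ier3. It was 0.32 for Foxa2 and 0.22 for Calca, but 0.06 for Il6st. Among the 8 genes nearest in profile, named below, it ran from 0.20 to 0.54. The spread did not have the same order in all 5. Replicate 2 was the highest control for the proteases and replicate 1 for Spink1, Cxcl15 and Ttr, whereas replicate 3 was the lowest for each gene except Cxcl15. The spot error on the control arrays was about 10%, but a range over 3 arrays and the error of 1 spot are unlike measures. How much of the spread lay between the control mice was not tested.

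The genes of gland function that the study names beside these products were compared next, using the criteria given above in limma's moderated test, with p adjusted by Benjamini-Hochberg over all genes tested. Of 6 genes, 5 fell, 0 rose and 1 did not pass, with a median log2 difference of -2.59 (-2.10 with Lif at its bound) against -0.0018 for all genes tested other than the 5. The study chose these genes on the same arrays, so that their direction is not independent evidence. Foxa2 read 10.95, 10.35 and 10.45 in Sox17 f/f and 5.80, 5.75 and 6.68 in Sox17 ed/ed, with no overlap, a log2 difference of -4.51 (SE 0.29, limma adjusted p = 0.000221). Lif read 6.55, 6.25 and 5.58 in Sox17 f/f, was too close to background in each Sox17 ed/ed uterus, and was at least 3.75-fold lower (limma adjusted p = 0.000547). With normexp the differences were -3.61 for Foxa2 and -0.90 for Lif. Cbs, cystathionine beta-synthase, fell by 2.88, Ier3, an immediate early response gene, by 2.30 and Il6st, the gp130 receptor subunit through which LIF signals, by 0.81 on the log2 scale. Replicate 3 was the lowest control for Lif, Cbs and Ier3, as for 4 of the 5 gland products, but not for Foxa2 or Il6st.

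Calca, the calcitonin gene, was the gene that did not pass, at a log2 difference of -0.69 (limma adjusted p = 0.0606) by its brighter probe. A second Calca probe, measured in all 3 Sox17 f/f uteri but in no Sox17 ed/ed uterus, did pass (limma unadjusted p = 1.51e-06), so that the probes of this gene disagree.

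Factors that build glands were divided. Of 16 genes, 4 fell, 3 rose and 9 did not pass, with a median of -0.02. Beside Foxa2 and Sox17 itself, Wnt11, a Wnt ligand, fell by 4.13 (SE 0.15) and Sox9, a SOX factor of the glandular epithelium, by 0.70 (SE 0.10). With normexp the difference of Wnt11 was -2.71, and that of Sox9 was -0.42, short of a fold of 1.4. Fzd10, a Wnt receptor, rose by 1.66 (SE 0.11), Wnt4, a Wnt ligand, by 1.61 (SE 0.13) and Cdh1, E-cadherin, by 0.59 (SE 0.10). Without control replicate 1, the limma adjusted p of Cdh1 was 0.0513.

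The nearest kin of the protease pair are other tryptase-like serine proteases. Of 10 such genes on the array, 7 were tested and 0 passed the criteria by limma or by an ordinary linear model, with a median of -0.32 (-0.29 with dim probes at their bounds) and 1 gene at an unadjusted p under 0.05. That gene was Prss22, chosen for naming after its values were seen, which read 5.29, 6.61 and 5.11 in Sox17 f/f and 4.38, 4.15 and 3.13 in Sox17 ed/ed (limma adjusted p = 0.053). It lay just outside the criteria and met them in 5 of the other settings, among them the one without control replicate 3.

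Of 17 more distant serine proteases tested, 5 rose, 4 fell and 8 did not pass, with a median of 0.23. The membrane proteases Tmprss4 and Hpn (hepsin) rose by 1.54 (SE 0.10) and 1.53 (SE 0.11), and the kallikrein Klk1 by 1.43 (SE 0.23), or 0.54 with normexp. Prss12 (neurotrypsin) fell by 1.19 (SE 0.22), the proprotein convertase Pcsk5 by 0.82 (SE 0.10), and Plau, urokinase, fell by 0.60 (SE 0.09). With normexp the difference of Plau was -0.43, short of a fold of 1.4. The remaining 3, Prss16 (0.65), Htra1 (0.53) and Prss23 (-0.69), changed less than 2-fold, and Htra1 and Prss23 each kept an adjusted p under 0.05 in only 1 of the 6 fits with an array left out, without control replicate 3, with values of up to 0.098 and 0.092 in the others. Prss16, well above background on 1 Sox17 f/f and 2 Sox17 ed/ed arrays, lost an adjusted p under 0.05 with a shift to the 75th percentile (0.139), with normexp (0.271, at a difference of 0.14) and with an intensity trend (0.129). Of the protease-activated receptors, through which trypsin-like proteases signal to cells, F2r and F2rl3 were tested and 0 of the 2 passed, at an unadjusted p under 0.05 or otherwise, whereas F2rl1 and F2rl2 were too dim to be tested.

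Other inhibitors of the family of Spink1 were mostly too dim to be tested. Of 10 such Spink genes 3 were tested, 2 of which rose and 0 of which fell. Spink8, another Kazal-type inhibitor, read 7.22, 6.88 and 7.42 in Sox17 f/f and 12.75, 12.95 and 13.00 in Sox17 ed/ed. The arrays of the genotypes lay far apart, with a log2 difference of 5.72 (SE 0.15, limma adjusted p = 1.08e-05), or 5.11 with normexp. Spink2 rose by 1.24 (SE 0.22), with an adjusted p of 0.0131, or 0.0513 without control replicate 1, and Spink4 differed by -0.11 and did not pass.

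Inhibitors of other folds were also mixed. Of 10 WAP and Kunitz inhibitors tested, 3 rose, 1 fell and 6 did not pass, with a median of 0.12. Slpi, the secretory leukocyte protease inhibitor, read 9.92, 9.69 and 11.16 in Sox17 f/f and 11.77, 12.43 and 12.53 in Sox17 ed/ed, a rise of 1.99 (SE 0.42, limma adjusted p = 0.0224) in which control replicate 3 stood above the other two. With an array left out, this adjusted p stayed under 0.05 in 2 of 6 fits, those without control replicate 3 or without Sox17 ed/ed replicate 1, and reached 0.0784. Wfdc2 and Wfdc15b rose by 1.47 (SE 0.11) and 1.37 (SE 0.18), whereas Wfdc3 fell by 2.64 (SE 0.21), a difference of -2.04 with normexp.

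**Figure D3:**
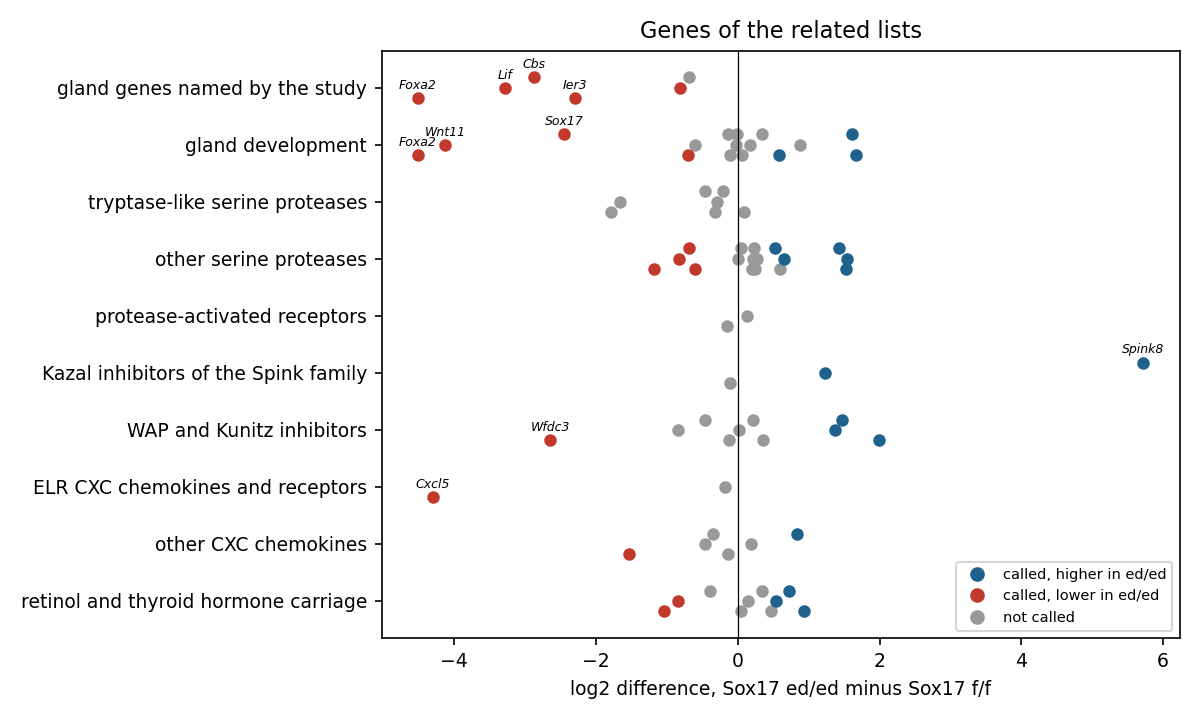
Log2 difference, Sox17 ed/ed minus Sox17 f/f (x axis), of each tested gene of the related lists (rows). Blue points rose and red points fell by the criteria of the methods, grey points did not pass, heights within a row only separate the points, and names are given beyond 2 units in either direction. Lif and Cxcl5 are drawn at measured differences although only a bound is known. The tryptase-like proteases are all grey, and Spink8 at 5.72 is the farthest to the right.

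A further list of 8 genes held chemokines that, like Cxcl15, carry the ELR motif before their first cysteines, and their receptors. It also held Pf4, a CXC chemokine without that motif. Of these 8 genes, 2 were tested. Cxcl5, which lies near Cxcl15 on chromosome 5, read 6.69, 6.58 and 5.94 in Sox17 f/f, was too close to background in each Sox17 ed/ed uterus, and was at least 4.53-fold lower (limma adjusted p = 8.37e-05), with a log2 difference of -1.21 with normexp. Pf4, listed with them, differed by -0.17 and did not pass, and Cxcl1, Cxcl2, Cxcl3, Ppbp and the receptors Cxcr1 and Cxcr2 were too dim to be tested. Of 6 other CXC chemokines tested, Cxcl14 rose by 0.84 (SE 0.12), Cxcl17, a mucosal chemokine, fell by 1.54 (SE 0.31) and 4 did not pass. The adjusted p of Cxcl17 was 0.0193, and up to 0.0643 without control replicate 1 or without replicate 2 or 3 of Sox17 ed/ed.

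For the cargo of TTR, 10 genes of retinol and thyroid hormone carriage were tested, of which 3 rose, 2 fell and 5 did not pass, with a median of 0.24. Rbp4, the retinol-binding protein that travels with TTR, fell by 0.84 (SE 0.11). Stra6, the receptor of that protein, rose by 0.72 (SE 0.06). Of the deiodinases, the activating Dio2 rose by 0.93 (SE 0.17) and the inactivating Dio3 fell by 1.04 (SE 0.13). With normexp the difference of Dio3 was -0.44, short of a fold of 1.4. Over all the related lists together, 17 genes rose, 17 fell and 44 did not pass of 78 tested, and 12.5% of all genes tested passed in either direction. The lists hold Sox17 itself and the gland genes that the study chose on these arrays. They were also drawn up with earlier results of these data known, so that their share of passing genes is a description only.

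The genes on both sides of the proteases and of Cxcl15 were read in the same fit. Only named protein-coding genes were counted, 5 on each side. Of 20 such genes, 14 were tested and 1 passed, Cxcl5, with a median of -0.12. On chromosome 17, the tryptase genes Prss34 (-0.32) and Tpsb2 (-0.21) were the nearest of the genes counted on either side of the pair. They did not pass the criteria, and neither did Tpsg1 (-0.29), the next one after Tpsb2, or Tekt4 (0.16). Cacna1h, a calcium channel gene on the far side of the tryptases, differed by -0.37 with a limma adjusted p of 0.0463, below the fold asked for. On chromosome 5, Rassf6, Pf4, Mthfd2l and Epgn did not pass, with differences between -0.34 and -0.05. Rassf6, at -0.34, did pass without control replicate 3.

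The genes whose profile over the 6 arrays lay nearest to the median profile of the 5 products, by root mean square distance on the log2 scale, were Syn2 (0.30), Pla2g10 (0.31), Acod1 (0.37), S100g (0.57), Slc5a11 (0.97), Cyp3a25 (1.03), Glod5 (1.26) and Tmprss11g (1.33). They were found by the same difference and carry no test of it. In Sox17 ed/ed the median profile was that of Ttr, which was not detected there, and 5 of these 8 genes were likewise not detected in Sox17 ed/ed, so that the distances rest in part on background signals and their order is not settled. Pla2g10, a secreted phospholipase A2, differed by -7.54 (SE 0.18), S100g, the calcium-binding calbindin D9k, by -6.84 (SE 0.13) and Slc5a11, a sodium-coupled inositol transporter, by -6.34 (SE 0.14). Acod1, which makes itaconate, was at least 190-fold lower and Tmprss11g, a membrane-bound serine protease, at least 32.8-fold lower. With normexp these differences were -5.76 for Pla2g10, -5.31 for Slc5a11, -5.44 for Acod1 and -3.37 for Tmprss11g, and that of Slc5a11 was -5.33 as the mean of its probes. For Syn2, a synapsin, the probe used was at least 26.9-fold lower (-3.28 with normexp). A second Syn2 probe was left out because its spot on replicate 3 of Sox17 ed/ed was marked as non-uniform, and gave a log2 difference of -4.45 without that array and, in the deposited table of processed values that keeps the spot, -1.14 (limma adjusted p = 0.8045).

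**Figure D4:**
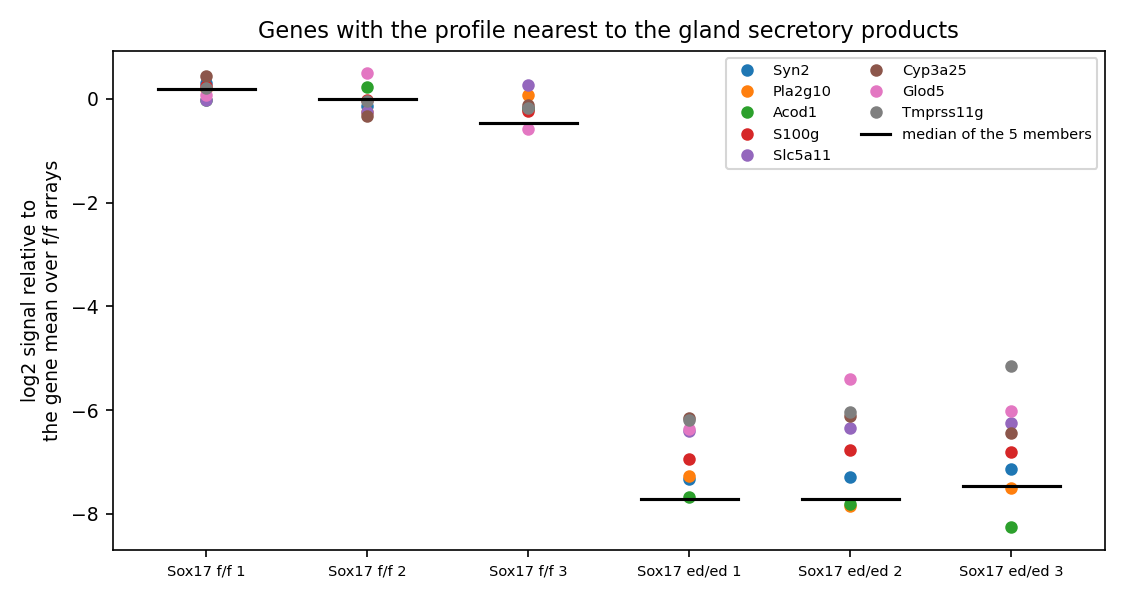
Log2 signal relative to the mean of the 3 Sox17 f/f arrays of each gene (y axis) on each of the 6 arrays (x axis) for the 8 genes nearest in profile to the gland products (coloured points), with the median of the 5 products as a black line. The line runs from 0.19 to -0.46 for Sox17 f/f and from -7.72 to -7.46 for Sox17 ed/ed, where it is the background signal of Ttr, and all points lie below -5 on the Sox17 ed/ed arrays, 5 of the 8 genes being at background there.

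Markers of the tissue and of other sources of these products were read on the same arrays. All 9 epithelial markers were well above background on all 6 arrays, and Krt7, Krt8, Krt19 and Cdh1 rose while Cldn3 fell. Their summed signal was 47500 to 49400 units in Sox17 f/f and 50700 to 62800 units in Sox17 ed/ed. This and later sums add normalized signals on the linear scale by the brightest probe of each gene, and are not unnormalized processed signals. All 8 markers of stroma and all 6 of smooth muscle were likewise measured on every array, and of these only Actg2 passed, lower in Sox17 ed/ed. Their sums were nevertheless lower in Sox17 ed/ed. For smooth muscle it was 469000 to 517000 units in Sox17 f/f and 341000 to 412000 units in Sox17 ed/ed. For stroma it was 300000 to 301000 units and 266000 to 286000 units. Without Dcn, the brightest stroma gene, the stroma sums overlapped (184000 to 189000 and 183000 to 199000 units). Whether the share of each tissue differed was not tested. Spink1 is also abundant in pancreas and Ttr in liver. Of 11 pancreatic markers on the array, Cela2a, Pnlip, Pnliprp1 and Try5 were above background on no array, Cpa1 and Cel fell, and the sum was 588 to 865 units in Sox17 f/f and 463 to 530 units in Sox17 ed/ed. Of 8 liver markers, Alb, Apoa1 and Ahsg were above background on no array and Serpina1a fell, and the sum was 3960 to 6780 units in Sox17 f/f and 1040 to 2840 units in Sox17 ed/ed. Without Serpina1a, its brightest gene, it was 769 to 807 units in Sox17 f/f and 645 to 2370 units in Sox17 ed/ed.

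Mast cells, the main source of tryptases, were followed by 7 markers. Fcer1a, Hdc and Kit fell, Cma1, Cpa3 and Mcpt4 did not pass, and Ms4a2 was above background on no array. Fcer1a was above background on no Sox17 ed/ed array, and its bound was at least 1.27-fold lower, short of the fold asked for. The sum was 27900 to 31200 units in Sox17 f/f, most of it from Hdc, and 1310 to 1780 units in Sox17 ed/ed. Without Hdc, which the study also counts among genes of the luminal epithelium, it was 1800 to 2390 units and 788 to 1130 units. The mast cell tryptase Tpsb2 did not pass, as given above. Of the 6 neutrophil markers on the array, which bear on the chemokines, 0 passed, and their sum was 1730 to 2240 units and 1780 to 2800 units. Of 6 oviduct and ovary markers, Ovgp1 fell, Amh and Lhcgr were above background on no array, and the sum was 1650 to 2700 units in Sox17 f/f and 548 to 1380 units in Sox17 ed/ed, and without Ovgp1 353 to 389 units in Sox17 f/f and 342 to 1120 units in Sox17 ed/ed. Of 6 markers of the preimplantation embryo, Elf5 rose, Pou5f1, Cdx2 and Zfp42 were above background on no array, and the sum was 566 to 624 units and 1150 to 1390 units. Elf5 rose by 3.41 (SE 0.25), whereas Nanog, the brightest gene, differed by 0.04 and did not pass. Without Nanog the sum was 74.7 to 111 units in Sox17 f/f and 648 to 874 units in Sox17 ed/ed. The part of mast cells, liver, pancreas, oviduct or embryo in the values of the 5 products was not tested.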

How the data were processed

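RNA of 6 whole uteri was grouped by genotype as the labels give it. The authors deposited, for each array, the Agilent Feature Extraction 11.0.1.1 output, whose spot intensity (processed signal) has background and spatial trends removed but no normalization between arrays, and a table of processed values that differed from it by a median of 0.00464%. Control spots and 169 to 302 spots per array marked as outliers were left out, log2 intensities were quantile normalized, as the study's methods state, and probes were kept that 3 or more of the 6 arrays measured well above background and that had no spot left out. Of 55681 probes, 26582 matched a gene by accession. The brightest probe stood for a gene. Differences were fitted with limma 3.58.1 in R 4.3.3 (lmFit, eBayes), tested on simulated data first. Sequences were read and compared in Python 3.11.15 with Biopython 1.88. Bounds set the Sox17 f/f mean against the Sox17 ed/ed mean after values of the dim probe under the lowest detected signal of their array had been lifted to it. Members and lists were chosen with earlier results of these data known. Named genes were the 5 products, Sox17, each gene of the lists or beside the products that passed, and the 8 nearest profiles, with other list genes only where a statement needed them, and some items are not reported here; the others named beside these were picked after their values were seen. Lists took in the study's gland genes, gland development, protease, inhibitor, chemokine and carrier families and cell type markers. The array is annotated on mm9, so that GRCm38.p6 served only for names, gene order and promoters. The number of arrays limits the precision.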

Additional observations from a re-analysis of the deposited data

How the results depend on the processing

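All 5 gland products stayed lower in Sox17 ed/ed under each alternative that kept them. With normexp background correction (offset 50, on the median spot signal in place of the mean signal planned) the differences shrank to -5.78 for Prss28, -6.80 for Prss29, -8.32 for Spink1, -2.05 for Cxcl15 and -3.61 for Ttr. Prss29 gave -7.34 as the mean of its probes and -5.98 by its dimmer probe, both as bounds. With an array left out, the range was -7.30 to -6.69 for Prss28, -8.92 to -8.51 for Prss29, -10.83 to -9.80 for Spink1, -4.28 to -3.41 for Cxcl15 and -5.56 to -5.03 for Ttr. When detection on each of the 6 arrays was required, only Prss28 of the 5 remained, and no gene next to the products passed (0).

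Of all genes tested, 1850 passed, 959 of them lower. With a fold of 2 these were 814 and 419, with an adjusted p under 0.05 and no fold 2805 and 1500, and with an array left out 1659 to 2029. Of the related lists 34 genes passed, 21 with a fold of 2 and 31 to 38 with an array left out. Of the genes next to the products 1 passed, 2 by adjusted p, and 1 to 2 with an array left out, the second, Rassf6, without control replicate 3. Equal replicate numbers showed no sign of a pairing (correlations of deviations of 0.0622, -0.114 and 0.000165 for equal numbers, and not every array correlated best with its own number). Deviations from a mean of 3 arrays cancel within a genotype, so that these correlations depend on each other. They cannot settle whether the samples were paired. With the replicate number as a block, 1796 genes passed, 929 lower, and 37 of the lists. Slide position could not be fitted as a block, since each row held 1 genotype. For single named genes, 46 of 721 other values lost an adjusted p under 0.05 and none changed sign, and 669 stayed on their side. Of the lost ones, an ordinary linear model took Cxcl17, Dio2, Htra1, Klk1, Prss12, Prss23, Slpi and Spink2 to up to 0.0966, the block took Cdh1, Cxcl17, Prss23 and Spink2 to up to 0.0584, and no filter took Htra1, Prss23 and Slpi to up to 0.0633. Signal over background limits what can be said of Prss29 and Ttr in Sox17 ed/ed to bounds.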
